A study of Mus musculus with 8 samples.

Results

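SNARE proteins and the factors that act on them drive the fusion of membranes, and in mast cells they carry out the release of granules. The genes described here were taken by symbol from the annotation of the array: the VAMPs, the syntaxins, Snap23, Snap25, Snap29 and Snap47, the Vti1 and Gosr genes, the syntaxin-binding proteins (Stxbp), the Unc13 genes, the synaptotagmins (Syt) and the synaptotagmin-like genes (Sytl). They comprise 131 probe sets, each with 1 gene symbol, for 57 genes, of 45101 probe sets and 18194 genes in all. No measured value entered this choice. Sytl3 had no probe set with a single symbol and was not analysed here.

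A fusion event joins a vesicle SNARE (a VAMP) with a syntaxin and a SNAP-25 type or other Qb and Qc SNARE on the target membrane, and the helices of all of them zip into a bundle that pulls the membranes together. Sec1/Munc18 proteins, Stxbp2 and Stxbp3 among them, guide syntaxins into the bundle, Munc13 proteins (the Unc13 genes) dock and prime the vesicle, and synaptotagmins couple fusion to calcium. Mast cells use this machinery to release histamine, proteases and other granule contents when the IgE receptor is engaged.

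Both groups came from MC/9, a murine mast cell line, with no genetic change or drug treatment given in the labels. The exosome group held RNA of vesicles from the culture supernatant, cleared at 500 g for 10 min and at 23000 g for 20 min, passed through a 0.22 µm filter and pelleted by ultracentrifugation for 70 min. The cell group held RNA of the parental cells, and each group had 4 arrays, made from 5 µg of total RNA each. All cells grew with fetal bovine serum and a supplement made from rat T cells, either of which could add foreign RNA to the pellet. How many preparations or passages the replicates stand for is not stated beyond the word biological in the labels. RNA was pooled over many cells or vesicles, so fewer cells or vesicles with a transcript and less of it in each cannot be told apart.

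The deposited values are linear signals with the same trimmed mean on every array. The exosome arrays had far more background on this scale. The floor of an array, the signal that 95% of probe sets for sensory receptors, keratin-associated proteins and defensins did not exceed, was 246 to 336 on exosome arrays and 10.5 to 16.5 on cell arrays. Log2 signals correlated across all probe sets, which are not independent replicates, with r of 0.941 to 0.973 between cell arrays and 0.413 to 0.521 between exosome arrays. By hybridisation date, batch 1 held exosome and cell replicates 1 and 2, while batch 2 held the others. With 1 probe set per gene, all 10 tested mast cell markers of the 11 in the list fell in exosomes. The 11 summed to 44178 to 49005 in cells and 1402 to 2112 in exosomes. By probe set, 14 of 16 tested were lower. Mitf 1422025_at and Tpsb2 1451802_at were not, with log2 differences of 1.05 and 1.59, and neither was called higher. T cell markers were above the floor on no array. Of 9 neuronal and neuroendocrine markers, 1 (Rbfox3) was above the floor on 2 exosome arrays, and the list summed to 66.4 to 114 in cells and 734 to 1420 in exosomes; its part in the results below was not tested.

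The fusion machinery was well represented on the cell arrays and lay almost wholly below the floor on the exosome arrays. Of the 131 probe sets, 79, 76, 78 and 78 were above the floor on the 4 cell arrays, and 6, 5, 6 and 3 on the 4 exosome arrays. The groups did not overlap, and the mean difference of -72.75 probe sets, exosome minus cell, was larger than the spread between replicates (5 ± 1.41 in exosomes against 77.8 ± 1.26 in cells, SD, n = 4; exact permutation test, two-sided, with the lowest p that 70 assignments allow, p = 0.029). The same difference came to -72 in batch 1 and -73.5 in batch 2. As a share this was 3.82% in exosomes, below the 5% that the floor lets through by its construction and below the 6.10% of all non-control probe sets. In cells the share was 59.4%, against 47.5% of all non-control probe sets. The count over all non-control probe sets gave the same p (exact permutation test, p = 0.029), and so did the floor itself. The test therefore does not set these genes apart from the rest of the array.

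**Figure D1:**
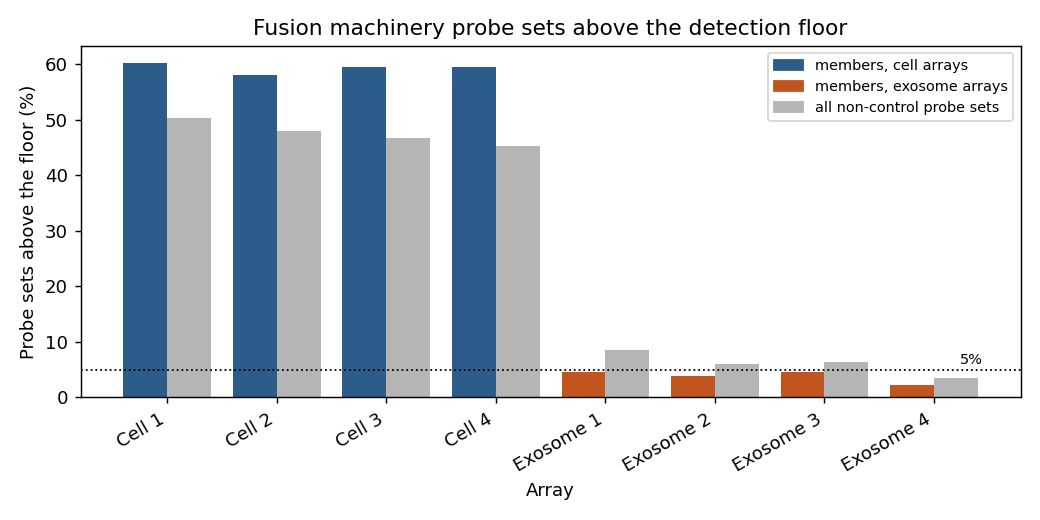
Percent of probe sets above the detection floor on each of the 8 arrays (bars), for the 131 probe sets of the fusion genes (coloured) and for all non-control probe sets (grey); the dotted line marks 5%. The coloured bars stand above the grey ones on all 4 cell arrays and below them on all 4 exosome arrays.

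Of the 57 genes, 35 had a probe set over the floor on every cell array, and 15 had none above it on any cell array. Of the 131 probe sets, 72 (55.0%) passed the floor on every cell array, against 40.1% of all non-control probe sets, and 42 (32.1%) passed it on no cell array, against 43.3%. All 7 VAMP genes and 12 of 14 syntaxin genes had a probe set that passed it on every cell array, and so did 7 of the 8 SNAP, Vti1 and Gosr genes, 4 of 5 Stxbp genes, 2 of 4 Unc13 genes, 2 of 3 Sytl genes and 1 of 16 synaptotagmin genes. In exosomes 12 probe sets (9.16%, against a background of 14.3%) were above the floor on at least 1 array. Only 1 of them, for Vamp5, was above it on all 4 exosome arrays, which is 0.763% of the 131 probe sets, against 1.44% of all.

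Probe sets above the floor on at least 3 arrays of a group were compared with limma on log2(signal + 4), over 20219 probe sets of the whole array. Of the 75 tested here, 32 (42.7%) were lower in exosomes, against a background of 37.5%, and 9 were higher, against a background of 17.9%. The other 34 did not pass, 23 of them with a negative difference. The median difference on the log2 scale was -1.12 over the 75 and -0.69 over all 20219. Probe sets for 1 gene share its transcript and are not independent of each other. The counts depend on how the arrays are scaled: scaled to the hybridisation controls, 73 of the 75 probe sets were lower and 0 higher. The whole array shifted with them, to a median difference of -4.78 over all 20219, against -5.12 over the 75.

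**Figure D2:**
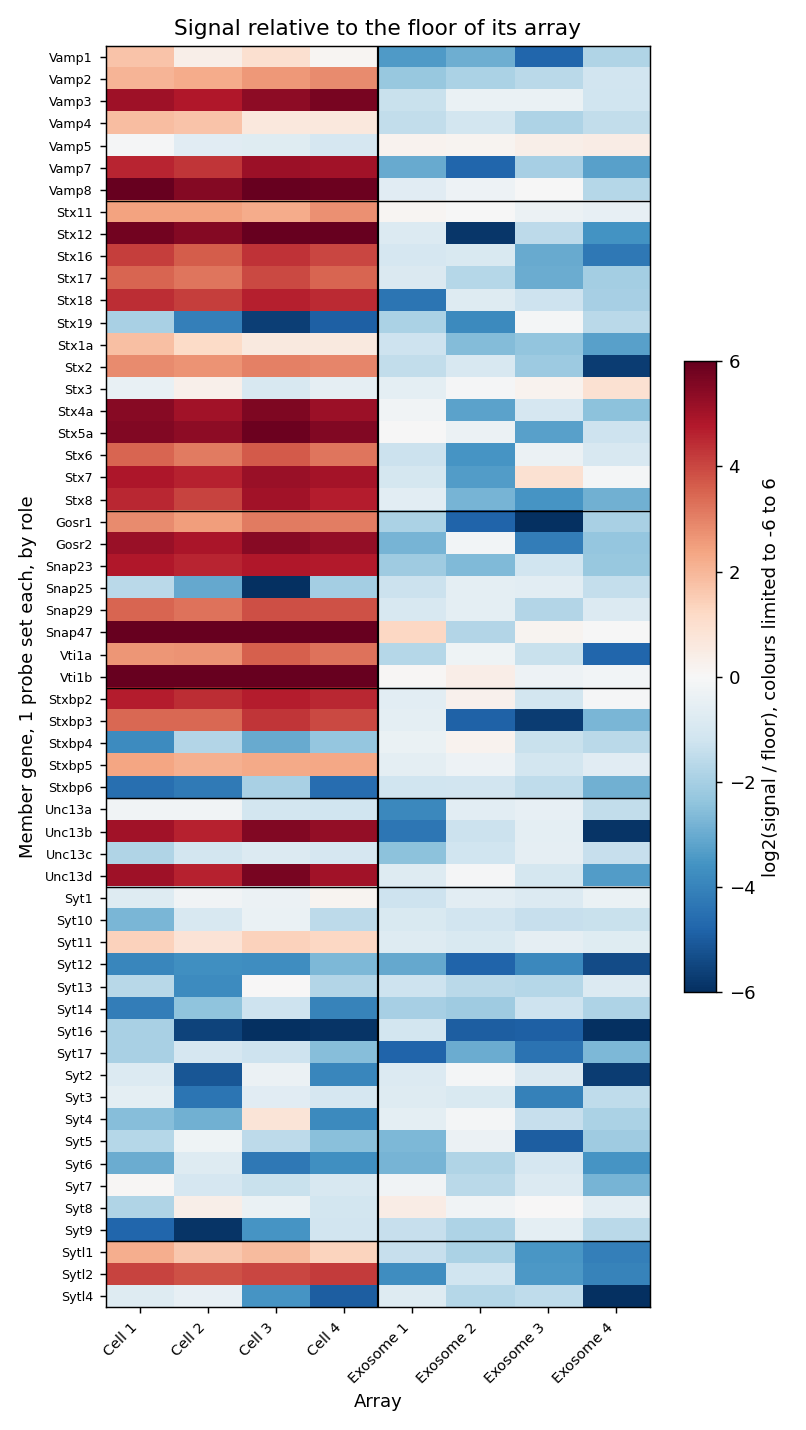
Log2 of signal over the floor of the same array, for 1 probe set (the brightest on average across the 8 arrays) of each of the 57 genes, grouped by role, on the 4 cell and 4 exosome arrays; white is the floor, red above it and blue below it. Red fills the cell columns of most VAMPs, syntaxins and SNAP genes, the synaptotagmins are mostly pale or blue apart from Syt11, and the exosome columns are mostly blue; for Stxbp4 and Vamp5 another probe set was above the floor in cells.

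Since the exosome floor was so high, a cell signal could show a loss only where it stood above that floor. On all 4 cell arrays 12 probe sets (9.16%, against 8.70% of all non-control probe sets) exceeded the highest exosome floor, 336. They stood for 11 genes: Vamp8, Vamp3 (2 probe sets), Stx4a, Stx5a, Stx7, Stx12, Snap47, Vti1b, Gosr2, Unc13b and Unc13d. Of these 12, 9 passed the floor on no exosome array (against a background of 69.8% of such probe sets), and none of the 12 was above it on all 4 (background 7.04%). Of the 12, 11 were lower in exosomes by limma, all except Stx7. The choice by high cell signal favours a lower call, and the share of lower calls among all such probe sets is not given here. For the 9, the bounds on the fall, cell signal over exosome floor on the deposited scaling, ran from 1.602-fold to 2.98-fold. Over all members, 17 probe sets had such a bound, all of them called lower. Some lower calls below have no bound and no exosome array above the floor. For these, the geometric mean of the cell signals did not exceed that of the exosome floors.

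**Figure D3:**
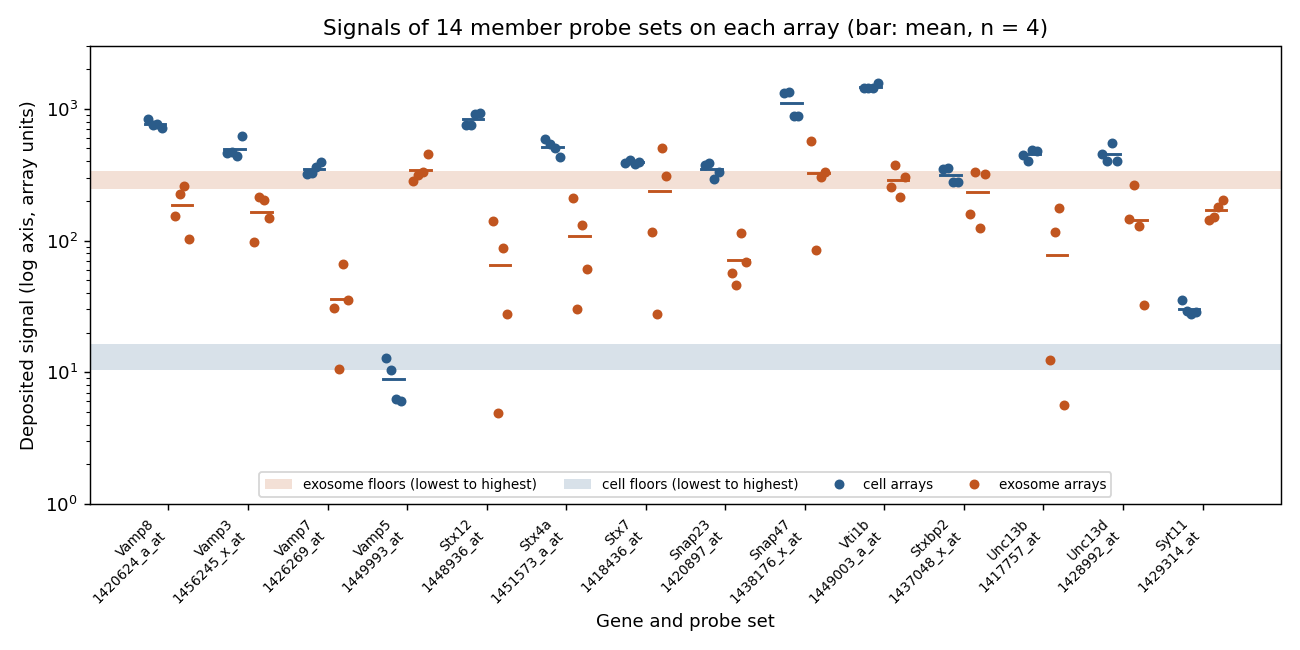
Deposited signal (log axis) of 14 probe sets on each of the 4 cell (blue) and 4 exosome (orange) arrays, with the mean of each group as a bar and the range of the floors of each group as a band. Cell signals of Vamp8, Vamp3, Stx12 and Vti1b stand above the orange band while the exosome signals of Vamp8, Vamp3 and Stx12 stay under its upper edge, and Vamp5 shows the opposite order.

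Among the vesicle SNAREs, Vamp8, which sits on secretory granules and endosomes and takes part in mast cell degranulation in the mouse, had cell signals of 839, 755, 761 and 714. In exosomes it read 155, 226, 257 and 103. No exosome signal passed its floor, all 4 lay below every cell signal, and Vamp8 was at least 2.73-fold lower in exosomes (limma, adjusted p = 0.000373; log2 difference -2.11 ± 0.34 SE, and -2.06 and -2.15 within batches 1 and 2). Vamp3, the cellubrevin of recycling endosomes, had 5 tested probe sets that disagreed. The one furthest down (1437708_x_at) read 725, 845, 674 and 990 in cells and 94.7, 49.7, 26.3 and 69.1 in exosomes, at least 2.85-fold lower (limma, adjusted p = 2.62e-05). Another 2 of its probe sets were lower too, at least 1.75-fold (1456245_x_at, adjusted p = 0.0021) and at least 1.47-fold (1433916_at, adjusted p = 0.00277, both limma).

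The other 2 probe sets of Vamp3 were dimmer in cells and gave no fall. For 1421102_a_at the difference of 0.43 did not pass (limma, adjusted p = 0.42). For 1433693_x_at, cell signals were 51.5, 45.2, 40.2 and 22.6 and exosome signals 110, 77.3, 236 and 98.9, none above the exosome floor. That difference of 1.54 was called higher (limma, adjusted p = 0.0172), turned to -2.74 with the arrays scaled to the hybridisation controls, and did not pass with quantile normalization (0.11, adjusted p = 0.89) or without cell replicate 4 (1.32, adjusted p = 0.063).

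Vamp7, a SNARE of late endosomes and lysosomes, read 317, 326, 363 and 395 in cells and 30.5, 10.5, 66.1 and 35.5 in exosomes, at least 1.24-fold lower (1426269_at; limma, adjusted p = 0.00019). Its other tested probe set had a difference of -1.96 and did not pass (adjusted p = 0.069). Vamp2, the synaptobrevin of synaptic vesicles, was dim in both groups. In cells 1420834_at read 55.6, 78.0, 64.1 and 86.8 and in exosomes 50.3, 76.5, 87.7 and 150, overlapping ranges with no difference that passed (limma, adjusted p = 0.63). Its other probe set (1420833_at) read 26.0 to 54.4 in cells and 2.74 to 17.3 in exosomes and was called lower (adjusted p = 0.00662), with every one of its signals under the exosome floor.

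Vamp5, first described in muscle as myobrevin, was the exception among all 131 probe sets. Its probe set 1449993_at read 281, 313, 334 and 454 in exosomes, above the floor on each array, and 12.8, 10.4, 6.25 and 6.06 in cells, below the floor on each. Every exosome signal exceeded every cell signal (limma, log2 difference 4.77 ± 0.40 SE, adjusted p = 6.84e-06), with differences of 4.27 and 5.27 within batches 1 and 2. On the deposited scaling the geometric mean of the exosome signals was 26.2-fold that of the cell floors. The median of the probe sets that set the floor averaged 69.45 on exosome arrays and 2.418 on cell arrays. That ratio is therefore no bound on a rise. With the arrays scaled to the hybridisation controls the difference was 0.68 and did not pass (adjusted p = 0.26), and with those scaled to the poly-A controls it was 1.65 (adjusted p = 0.10). The other Vamp5 probe set (1430522_a_at) went the other way: it read 47.9, 61.5, 71.2 and 67.0 in cells and 40.5, 23.4, 8.09 and 21.7 in exosomes (limma, adjusted p = 0.0316). Exosome signals of 281 to 454 exceeded floors of 246 to 336, and all 4 lay under a stricter floor, the 99th percentile, of 516 to 700.

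The genes Vamp5 and Vamp8 are neighbours on chromosome 6 on the same strand, with their promoter windows 9899 bases apart, and are shown together because their brightest probe sets ran in opposite directions. RefSeq promoters (GRCm38.p6, minus strand) are printed from 250 bases before to 50 bases after the start of each gene, for Vamp8 at chr6:72390618-72390917 and for Vamp5 at chr6:72380419-72380718. CG dinucleotides are in capitals.
Vamp8: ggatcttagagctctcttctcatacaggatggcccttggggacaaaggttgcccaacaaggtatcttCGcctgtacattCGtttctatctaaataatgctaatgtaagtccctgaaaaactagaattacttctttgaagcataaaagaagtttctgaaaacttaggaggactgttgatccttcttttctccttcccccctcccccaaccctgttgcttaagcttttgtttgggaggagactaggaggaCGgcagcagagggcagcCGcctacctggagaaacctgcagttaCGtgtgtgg
Vamp5: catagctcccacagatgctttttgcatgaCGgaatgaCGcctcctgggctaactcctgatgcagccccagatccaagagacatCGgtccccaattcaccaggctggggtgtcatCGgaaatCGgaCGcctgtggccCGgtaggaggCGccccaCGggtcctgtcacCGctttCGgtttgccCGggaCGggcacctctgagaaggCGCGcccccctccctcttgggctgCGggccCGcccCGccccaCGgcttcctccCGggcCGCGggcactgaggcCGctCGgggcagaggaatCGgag
Vamp8 had 5 CG in this window and Vamp5 had 25. Promoters were found for 45 of the 57 genes, and their median was 20 CG per window, against 7 over 27025 mouse genes. Genes with a probe set over the floor on every cell array (30 genes, median 21, range 5 to 47) and genes above it on none (11 genes, median 19, range 3 to 49) covered nearly the same range. Searched on both strands, the E-box CACGTG was present in 13.3% of the 45 promoters and in 8.09% of all, and the GATA motifs AGATAA or TGATAA in 4.44% and 21.0%. Neither printed window held any of these motifs.

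Vamp4, a SNARE of the trans-Golgi network, had a probe set called higher (1434796_at), with exosome signals of 87.1, 131, 73.6 and 122 and cell signals of 48.1, 53.8, 16.4 and 18.8. No exosome signal passed the floor, and the difference of 1.61 (limma, adjusted p = 0.0173) turned to -2.61 with the arrays scaled to the hybridisation controls and to -0.23 with quantile normalization. It did not pass without cell replicate 3 (1.35, adjusted p = 0.067) or cell replicate 4 (1.41, adjusted p = 0.064). Vamp1, a synaptic vesicle SNARE like Vamp2, read 13.1 to 43.8 in cells and 9.76 to 97.6 in exosomes on its brighter probe set, with no difference that passed (adjusted p = 0.61). In all, 7 of the 15 tested VAMP probe sets were lower and 3 were higher (37.5% and 17.9% of all tested).

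Among the syntaxins, 9 of 26 tested probe sets were lower and 1 was higher, against backgrounds of 37.5% and 17.9%. Stx4a, the gene of syntaxin 4 at the plasma membrane, a partner of Snap23 in granule release, read 588, 541, 501 and 428 in cells and 211, 30.2, 132 and 60.9 in exosomes. All exosome signals lay under the floor and under every cell signal, at least 1.82-fold lower (limma, adjusted p = 0.00204; log2 difference -2.73 and -2.32 within batches). Stx12, a syntaxin of recycling endosomes, had the largest bound on a fall among the 57 genes: 751, 756, 919 and 935 in cells, 141, 4.87, 88.1 and 27.8 in exosomes, at least 2.98-fold lower (limma, adjusted p = 0.000629). Its second probe set was dim and did not pass (adjusted p = 0.60). Stx5a, for the syntaxin of transport from the endoplasmic reticulum to the Golgi, read 624, 679, 614 and 572 in cells and 242, 221, 28.1 and 143 in exosomes, at least 2.21-fold lower (limma, adjusted p = 0.00609), and it did not pass with quantile normalization (-1.96, adjusted p = 0.055).

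Stx7, Stx8 and Vti1b with Vamp8 form the SNARE bundle of late endosome fusion, and their calls were not all the same. Stx8 read 312, 271, 347 and 319 in cells and 160, 40.3, 22.7 and 45.1 in exosomes, at least 1.11-fold lower (1418089_at; limma, adjusted p = 0.00206). A second Stx8 probe set was lower too, with no bound (limma, adjusted p = 0.00075). Vti1b read 1427, 1448, 1434 and 1573 in cells and 255, 377, 214 and 303 in exosomes. The groups stood far apart, with a log2 difference of -2.37 ± 0.27 SE (limma, adjusted p = 3.99e-05), -2.20 and -2.54 within batches. Exosome replicates 1 and 2 were above the floor for Vti1b, and raising lower signals to the floor gave -2.26.

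Of these, Stx7 alone did not pass, and no test compared it with its partners. Cell signals were 389, 409, 382 and 393, and exosome signals were 117, 27.5, 503 and 310. Exosome replicate 3 was above its floor and above every cell array, replicate 4 was close to its floor, and the batch 1 replicates were low. The pooled difference of -1.34 did not pass (limma, adjusted p = 0.13), with -2.71 within batch 1 and 0.03 within batch 2, and it passed without exosome replicate 3 (-1.90, adjusted p = 0.035).

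Syntaxin 11 is needed for the release of cytotoxic granules in human lymphocytes, and Stx11 had 2 probe sets of opposite call. The first (1457780_at) read 268, 273, 209 and 237 in exosomes, above the floor on replicate 1, and 72.2, 86.9, 48.4 and 80.9 in cells (limma, difference 1.74, adjusted p = 0.00141), which turned to -2.68 with the arrays scaled to the hybridisation controls. The other (1453228_at) read 142, 150, 109 and 143 in cells and 80.7, 19.5, 72.6 and 13.02 in exosomes and was called lower, with no bound (limma, adjusted p = 0.0208). Stx6, a syntaxin of the trans-Golgi network and endosomes, was mixed as well. On 1460004_x_at it read 232, 214, 282 and 287 in cells and 2.92, 40.3, 3.98 and 18.7 in exosomes (lower with no bound; limma, adjusted p = 0.000253). Its other 3 tested probe sets, Stx6 1423038_at among them (limma, adjusted p = 0.55), did not pass.

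Syntaxin 3, found on mast cell granules, was not measured in these cells: of the 4 Stx3 probe sets, 2 were above the floor on no cell array and 2 on 1 cell array. The brightest one (1425536_at) read 164, 270, 312 and 641 in exosomes and 9.94, 20.6, 5.37 and 8.29 in cells. Exosome replicates 3 and 4, both of batch 2, were above the floor. It did not meet the filter, so no test was made. Of the remaining syntaxins, Stx16 was lower with no bound (limma, adjusted p = 0.0279). Stx18 was lower on 1 of 5 probe sets (limma, adjusted p = 0.0223, at least 1.002-fold). Stx1a, Stx2 and Stx17 did not pass, and Stx19 was above the floor on no array.

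The SNAP and Qb genes had 7 of 16 tested probe sets lower and none higher, against backgrounds of 37.5% and 17.9%. Snap23, the SNAP-25 relative that pairs with syntaxin 4 in mast cell degranulation, read 375, 387, 292 and 331 in cells and 56.3, 45.6, 115 and 68.8 in exosomes on 1420897_at. It was at least 1.23-fold lower (limma, adjusted p = 0.000392; -2.82 and -1.76 within batches), while its other 2 tested probe sets did not pass (adjusted p = 0.097 and 0.62). Snap25, the neuronal SNAP, was above the floor on no array: its brighter probe set read 0.0608 to 4.40 in cells and 99.1 to 186 in exosomes, all under floors of 246 to 336. No comparison can be made from such signals, although the groups did not overlap.

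Snap47, a widely expressed relative, read 1322, 1345, 874 and 889 in cells and 574, 84.0, 301 and 332 in exosomes on 1438176_x_at. Exosome replicates 1 and 3 were above the floor, the groups did not overlap, and the log2 difference was -2.02 ± 0.51 SE (limma, adjusted p = 0.00621; -2.57 and -1.47 within batches), or -1.59 after raising lower signals to the floor. With quantile normalization it was -0.83 and did not pass (adjusted p = 0.43). Its second probe set was at least 1.18-fold lower over both batches (limma, adjusted p = 0.0202), with -2.80 and -0.40 within batches 1 and 2. In batch 2 its cell signals, 215 and 217, lay under both exosome floors, 266 and 336. Gosr2, the Golgi SNARE membrin, read 480, 492, 458 and 469 in cells and 35.0, 254, 15.1 and 68.3 in exosomes, at least 1.69-fold lower (limma, adjusted p = 0.00317). Gosr1, for the Golgi SNARE GS28, had a dim probe set called lower (adjusted p = 0.00781), and none passed for Snap29, which read 150 to 174 in cells on its brightest probe set, or for Vti1a.

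**Figure D4:**
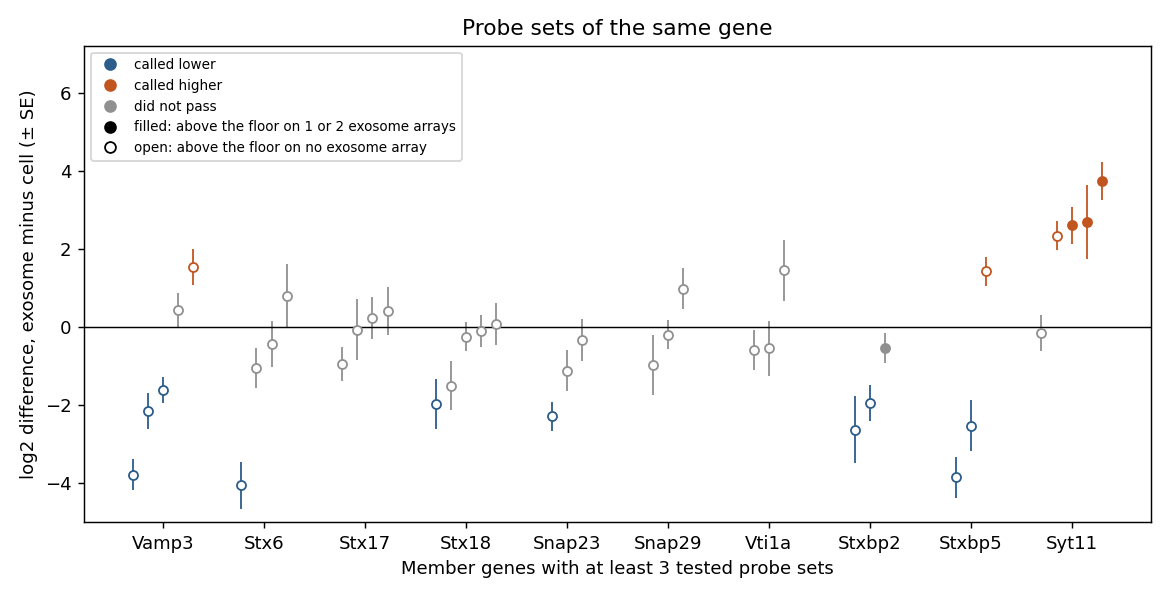
Log2 difference, exosome minus cell (± SE), of each tested probe set of the 10 genes with at least 3 tested probe sets; blue points are called lower, orange higher and grey did not pass, filled where above the floor on an exosome array. Vamp3 and Stxbp5 have points on both sides of 0 that passed, and 4 of 5 Syt11 points lie above 2.

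Probe sets of 1 gene often disagreed. Of the 22 genes with at least 2 tested probe sets, all were lower for 3, some were lower and some did not pass for 10, and none passed for 3. For 4 genes, Vamp3, Vamp5, Stx11 and Stxbp5, 1 or more probe sets were lower while another was higher, and for the other 2 some were higher and some did not pass. Which transcript forms each probe set reads was not examined.

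Among the syntaxin-binding proteins, 6 of 9 tested probe sets were lower and 1 was higher, against backgrounds of 37.5% and 17.9%. Stxbp2 encodes Munc18-2, a partner of syntaxins 3 and 11, whose loss in humans impairs cytotoxic granule release. Its brightest probe set (1437048_x_at) read 351, 357, 276 and 280 in cells and 158, 334, 123 and 322 in exosomes, with exosome replicate 2 above the floor and overlapping groups, and did not pass (limma, -0.54, adjusted p = 0.26). The other 2 were lower, at least 1.10-fold (1448341_a_at, adjusted p = 0.00425) and at least 1.04-fold (1416449_x_at, adjusted p = 0.0227), with no exosome array above the floor. In batch 2 the cell signals were 281 and 262 on 1448341_a_at and 256 and 227 on 1416449_x_at. None of these exceeded the floor of exosome replicate 4, 336. Stxbp3, for Munc18-3, which binds syntaxin 4, read 147, 178, 205 and 193 in cells and 165, 9.81, 5.20 and 50.3 in exosomes.

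The groups overlapped for Stxbp3 through exosome replicate 1, and its call (limma, -2.48, adjusted p = 0.0223) was lost without exosome replicate 2 (-2.06, adjusted p = 0.061), exosome replicate 3 (-1.87, adjusted p = 0.056), cell replicate 3 (-2.42, adjusted p = 0.055) or cell replicate 4 (-2.45, adjusted p = 0.053). Stxbp5, the syntaxin-binding inhibitor tomosyn, read 268, 289, 251 and 215 in cells and 7.12, 4.82, 21.0 and 37.7 in exosomes on 1435398_at (lower; limma, adjusted p = 0.000157). A second probe set was lower as well (limma, adjusted p = 0.00703). Neither has a bound, and raising lower signals to the floor gave a difference of 0.14 on each. Another one, 1430301_at, read 161, 229, 123 and 212 in exosomes, all under the floor, and 51.1 to 73.2 in cells. It was called higher (1.42, adjusted p = 0.00698), did not pass with quantile normalization (0.71, adjusted p = 0.24) and turned to -2.96 with the arrays scaled to the hybridisation controls. Stxbp4, a syntaxin 4 partner also called Synip, had 1 of 2 tested probe sets lower, with no bound (1451063_at, 40.2 to 106 in cells and 8.78 to 12.6 in exosomes; limma, adjusted p = 0.00173). Stxbp6, for amisyn, was above the floor on no array.

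The priming factors of leukocyte granules stood clear in cells. Unc13d encodes Munc13-4, needed for cytotoxic granule release in humans and for mast cell degranulation in mice, and it read 456, 405, 550 and 401 in cells. In exosomes it read 145, 264, 130 and 32.6, all under the floor and under every cell signal, at least 1.602-fold lower (limma, adjusted p = 0.0104; -1.11 and -2.76 within batches); with quantile normalization it was -1.86 and did not pass (adjusted p = 0.056). Unc13b, for Munc13-2, read 446, 402, 490 and 478 in cells and 12.3, 115, 177 and 5.67 in exosomes, at least 1.62-fold lower (limma, adjusted p = 0.00554; -3.28 and -3.54 within batches, neither of which passed with 2 arrays a group). Unc13a and Unc13c, the neuronal members, were above the floor on no array.

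Synaptotagmins, the calcium sensors, were mostly not measurable in the cells. Apart from Syt11, 29 probe sets of 15 genes had no cell signal over 20.8, with 23 above the floor on no cell array and 6 on 1. Their exosome signals ran from 1.65 to 331 and, except for Syt8, stayed under the floor. Syt2 and, in rat mast cell lines, Syt3 and Syt9 have been studied in granule release; here none of them was above an exosome floor, and Syt3 and Syt9 were above no cell floor either. Syt9 read 94.5, 77.5, 178 and 110 in exosomes and 0.504, 0.280, 0.902 and 5.57 in cells. Syt8 read 331, 243, 267 and 217 in exosomes, with replicates 1 and 3 above the floor, and 3.89, 20.8, 7.87 and 5.66 in cells, with 1 above the floor, and was not tested.

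Syt11, a synaptotagmin of endosomal membranes that does not bind calcium in the usual way, was the single member over the floor on every cell array, and 4 of its 5 probe sets were called higher in exosomes. On 1429315_at it read 207, 334, 227 and 278 in exosomes and 18.6, 4.83, 17.5 and 30.4 in cells (limma, 3.73, adjusted p = 0.000105), with exosome replicate 2 above the floor. On 1456464_x_at (2.61, adjusted p = 0.000888) exosome replicate 1 was above it, and on 1429314_at (2.34, adjusted p = 0.000351) no exosome array was. The fourth, 1455176_a_at, read 202, 12.04, 377 and 489 in exosomes and 11.7, 21.4, 26.9 and 25.03 in cells, with replicates 3 and 4 above the floor.

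Groups overlapped on this last Syt11 probe set (2.69, adjusted p = 0.0309), and the call was lost without any 1 array except exosome replicate 2, at 2.14 (without exosome replicate 4) to 2.80 (without cell replicate 3), adjusted p = 0.053 to 0.090. With the arrays scaled to the hybridisation controls all 4 turned negative, from -0.44 for 1429315_at to -1.98 for 1429314_at. With quantile normalization 1429315_at passed, and Syt11 1429314_at (0.999, adjusted p = 0.071), 1456464_x_at (1.25, adjusted p = 0.12) and 1455176_a_at (1.82, adjusted p = 0.25) did not. The fifth probe set, 1449264_at, did not pass (-0.15, adjusted p = 0.80). Macrophage markers Csf1r (1423593_a_at) and Adgre1, read at 127.7 to 272.2 and 105.6 to 183.1 in exosomes and 19.1 to 26.9 and 11.7 to 18.5 in cells, were also called higher, each under the exosome floor throughout. With the arrays scaled to the hybridisation controls their differences turned to -1.55 and -1.21. Cd14 did not pass (limma, 0.025, adjusted p = 0.97), and Cd68 and the other Csf1r probe sets were not tested. The 4 macrophage markers summed to 79.8 to 95.8 in cells and 312 to 633 in exosomes, and their part in the Syt11 values was not tested.

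Of the Rab27 effectors among the Sytl genes, Sytl2, which tethers secretory vesicles to the plasma membrane, read 220, 231, 170 and 222 in cells and 18.4, 123, 24.0 and 20.8 in exosomes (lower; limma, -2.51, adjusted p = 0.00321). Its cell signals were themselves under the exosome floor, so no bound is given. Sytl1 did not pass (adjusted p = 0.98). Sytl4, granuphilin, was above the floor on no array.

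Taking all role groups, the 9 probe sets called higher shared low cell signals: none exceeded 86.9 in cells, and 4 passed no exosome floor. Of the 9, 8 turned negative when arrays were scaled to the hybridisation controls, all except Vamp5, and 3 of the 9, for Vamp5, Stx11 and Syt11, passed with quantile normalization. Of the 32 called lower, 30 passed the floor on no exosome array and 30 showed no overlap between groups. Within each batch, 32 of 32 had negative differences. These counts follow in part from the call, made on the same arrays, and 119 of all 131 probe sets passed no exosome floor. The shares among all lower calls of the array are not given here. Fitted within batch 1 alone, with 2 arrays a group, the lower calls of Gosr2, Snap47, Stx12, Stx4a, Stx8, Stxbp3, Sytl2, Unc13b and Unc13d did not pass, nor did the higher calls of Vamp3 and Vamp4 and that of Syt11 on 1455176_a_at. Over all tested probe sets here, the groups did not overlap for 41 of 75 (54.7%), against a background of 53.6%. All exosome signals lay below all cell signals for 33 of 75 (44.0%), against 37.2%. The 56 probe sets that were not tested, of 31 genes, had no cell signal over 27.4, and 3 of them, for Stx3, Stxbp4 and Syt8, were above an exosome floor on 1 or 2 arrays.

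Cell arrays also differed between batches. Of the 72 probe sets that passed the floor on every cell array, 9 (12.5%, against a background of 12.4%) differed by more than 2-fold between batches on the log2 scale, and all 9 were higher in batch 1. The largest was for Vamp4 (1422895_at), which read 109 and 127 in batch 1 and 28.1 and 35.5 in batch 2. Snap47 (1423745_at) read 516 and 490 against 215 and 217, and Gosr2 (1419372_at) 99.4 and 82.8 against 53.0 and 30.02. The others were for Stx1a, Stx6, Stxbp4, Vamp3, Vamp4 and Vti1a. The brighter probe sets of Gosr2 and Stx6 did not differ so much, and Vamp8, Stx12, Vti1b and Unc13b stayed within 2-fold on the probe sets given above. Mast cell markers differed between batches too: of 16 marker probe sets above the floor on every cell array, 4 differed by more than 2-fold, for Kit, Mitf and Tpsb2, all higher in batch 1. Kit (1415900_a_at), the receptor for stem cell factor, read 1158 and 1408 in batch 1 and 129 and 112 in batch 2. Mcpt4, a mast cell protease, was above the floor in batch 1 only, at 61.3 and 62.9. The 17 marker probe sets summed to 52742 and 54862 in batch 1 and 47984 and 50573 in batch 2, and their part in the batch differences was not tested. Whether the batches differed in culture, extraction or array handling was not tested.

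**Figure D5:**
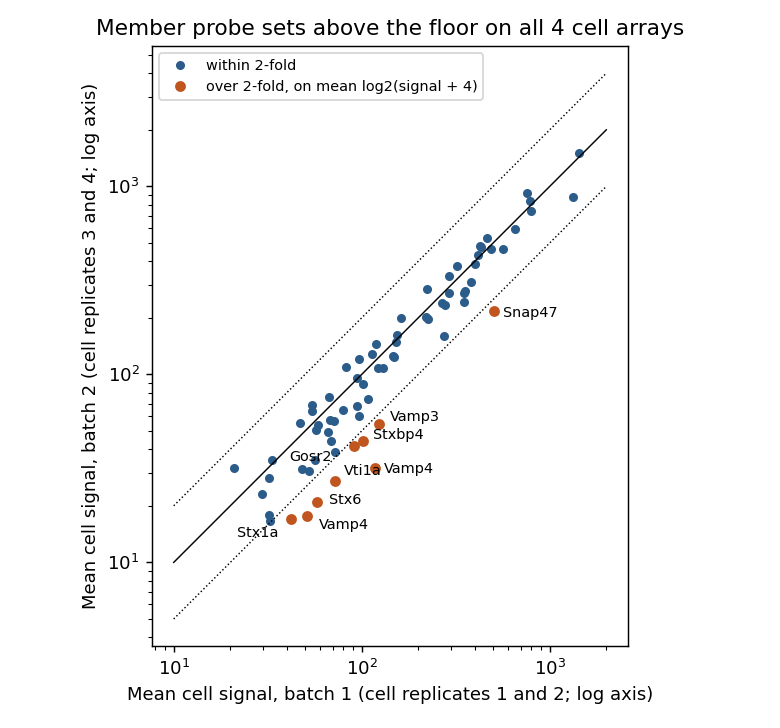
Mean cell signal in batch 2 (replicates 3 and 4) against batch 1 (replicates 1 and 2), both on log axes, for the 72 probe sets that passed the floor on every cell array; the solid line is equality and the dotted lines mark 2-fold. The 9 orange points differ by over 2-fold on mean log2(signal + 4), and all lie below the solid line.

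Other genes of the same pathway, from a list of 54, gave similar values. Of their 131 probe sets 79 were tested, with 36 lower (45.6%, against a background of 37.5%) and 13 higher (16.5%, against 17.9%) and a median difference of -1.06, against -1.12 for the genes above and -0.69 over all probe sets. With 1 probe set per gene, 7 of 11 tested genes for SNARE recycling and other SNAREs were lower and 0 higher, 5 of 10 for Sec1/Munc18 proteins and tethers were lower and 2 higher, and 12 of 18 for docking and priming were lower and 4 higher. By probe set, these came to 9 of 24 lower and 2 higher, 7 of 19 lower and 4 higher, and 20 of 36 lower and 7 higher. No share per gene over the whole array is given here. Rab27b, the small GTPase that recruits Sytl and Munc13-4 proteins to granules, had the largest bound on a fall in this list: 2156, 2035, 1897 and 1763 in cells and 91.9, 61.8, 124 and 102 in exosomes, at least 6.98-fold lower (1417214_at; limma, adjusted p = 2.32e-06). Another Rab27b probe set, 1443764_x_at, went the other way, with 185, 110, 117 and 322 in exosomes, none above the floor, and 21.2 to 44.1 in cells. It was called higher (limma, 2.15, adjusted p = 0.00266) and turned to -2.18 with the arrays scaled to the hybridisation controls.

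Use1, a SNARE of the endoplasmic reticulum, was at least 3.48-fold lower on 1451130_at (limma, adjusted p = 0.000237), while its probe set 1453430_at did not pass (1.29, adjusted p = 0.14). Exoc4, an exocyst subunit, was at least 2.61-fold lower on 1422684_a_at (limma, adjusted p = 0.000165). Its probe set 1431062_a_at, above the floor on 1 exosome array, was called higher (limma, 1.80, adjusted p = 0.0144) and turned to -2.58 with the arrays scaled to the hybridisation controls.

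Nsf, the ATPase that takes SNARE bundles apart, read 231 to 317 in cells and 24.1 to 95.5 in exosomes on 1422456_at. It was lower with no bound (limma, adjusted p = 0.0029) and no exosome array above the floor. Nsf 1422455_s_at (limma, -0.99, adjusted p = 0.27) and 1457205_at (-0.46, adjusted p = 0.61) did not pass. Its adaptor Napa was at least 1.55-fold lower (1448243_at, adjusted p = 0.00972). On 3 exosome arrays 2 probe sets of this list passed the floor. Stxbp5l, a relative of tomosyn known from neurons, read 339, 475, 273 and 271 in exosomes and 2.31 to 8.19 in cells on 1447922_at. It was called higher (limma, 5.21, adjusted p = 5.57e-06). The geometric mean of its exosome signals was 25.5-fold that of the cell floors, which is no bound on a rise. Each exosome signal lay under the 99th percentile floor, 516 to 700. The median of the probe sets that set the floor averaged 69.45 on exosome arrays and 2.418 on cell arrays. Other Stxbp5l probe sets, above the floor on no array, were not tested. The difference on 1447922_at was 1.35 with the arrays scaled to the hybridisation controls. Rab3a, a vesicle GTPase, read 992, 815, 802 and 309 in exosomes and 145, 195, 144 and 185 in cells on 1459980_x_at (1.99, adjusted p = 0.00141), which turned to -2.52 with that scaling, and its other probe set, 1422589_at, did not pass (0.48, adjusted p = 0.61).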

How the data were processed

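RNA of 4 exosome and 4 cell samples was measured on Affymetrix Mouse430_2 arrays. The authors deposited 1 linear intensity for each probe set and array, made with GCOS per the submitters' processing notes. No version is given there, and how probes were summarised is not given in the sources used here. On every array these values have a 2% trimmed mean of 100, so an array with little signal has its background raised. The settings files of the arrays, not used for expression, gave the 2 hybridisation batches. Those of cell replicates 3 and 4 were identical, while the signals of these arrays correlated with r = 0.973.

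Gene symbols came from the platform annotation, and 64 of 45101 probe sets are controls. The floor of an array was the 95th percentile of 150 background probe sets. A probe set was tested if above the floor on at least 3 of 4 arrays of a group. Groups were compared on log2(signal + 4), which understates changes of dim probe sets, with limma 3.58.1 in R 4.3.3 (lmFit, eBayes with a trend), all p-values adjusted by Benjamini-Hochberg over 20219 probe sets, at a threshold of 0.05. Counts per array were compared with a two-sided exact permutation test over 70 assignments. If the lower group never passed its floors, "at least N-fold" divides the geometric mean of the brighter group by that of the larger of floor and signal in the dimmer one, on the deposited scaling only. Such a bound is on means over all 4 arrays of a group and need not hold within each batch. For a rise, the same ratio includes the higher background of the exosome arrays and was not read as a bound.

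The number of arrays limits the precision, and p-values measure only the spread between these samples, which may be technical. Genes were named if known from mast cell or leukocyte granule release, if among the 4 largest falls of a role group, if a probe set was called higher, or if above the floor on 3 exosome arrays. Genes of the other lists were picked after their values were seen. The genes, lists and rules were chosen with earlier results of these data known. Alternatives covered 5 other scalings, the pseudocount, the filter, the floor, the batch and replicate blocks, and leaving out each array. Promoters are from RefSeq, GRCm38.p6, and the windows span 300 bases.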

Additional observations from a re-analysis of the deposited data

Results flagged for a closer look

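Of 68 groups of 4 arrays examined for the named probe sets, 6 held an array set far from the other 3 by Dixon's criterion at 95%; chance alone gives about 1 such group in 20. Vti1b had its highest cell signal, 1573, on cell replicate 4, with the other 3 cell arrays close together. Sytl2 had its highest exosome signal, 122.6, on exosome replicate 2, under the floor, and its lowest cell signal, 170.3, on cell replicate 3. Sytl4 had its lowest exosome signal, 3.52, on exosome replicate 4, and Syt3 its lowest, 16.1, on exosome replicate 3, both among signals under the floor. Syt9 had its highest cell signal, 5.57, on cell replicate 4, also under the floor.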

How the results depend on the processing

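The counts of calls followed the scaling. Of the 75 tested probe sets, 73 were lower with the arrays scaled to the hybridisation controls, 65 with the poly-A controls, 50 after subtracting the background median, 12 after raising lower signals to the floor and 18 within batch 1, against 32, and leaving out 1 array gave 26 to 35. Higher were 3 with quantile normalization, 0 with either set of controls, 5 after background subtraction, 50 with signals set to the floor (exosome floors exceed most cell signals by construction) and 61 of 131 with no filter, against 9, and 6 to 10 with 1 array left out. The median over all tested probe sets, -0.69, was -4.78 with the hybridisation controls and -3.86 with the poly-A controls. It was -2.50 after background subtraction, -1.51 with quantile normalization and 1.40 with signals set to the floor. Shares of calls over the whole array under these settings are not given here. For the other fusion genes the lower calls, 36, became 75, 64, 11 and 23 with the hybridisation controls, the poly-A controls, signals set to the floor and within batch 2 (29 to 37 with 1 array left out). Their higher calls, 13, became 3 with quantile normalization, 1 with either set of controls, 5 after background subtraction, 61 with no filter, 8 with a floor at the 99th percentile and 52 with signals set to the floor (9 to 12 with 1 array left out). With the probe set brightest in cells standing for a gene, 1 gene was higher in place of 5. The difference in probe sets above the floor was -72 and -73.5 within batches (exact p = 0.33, the smallest 2 against 2 arrays allow) and -73.3 to -72.1 with 1 array left out.

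With the hybridisation and the poly-A controls, differences turned to -2.96 and -1.96 for Stxbp5 1430301_at, -4.03 and -3.01 for Vamp2 1420834_at, -2.74 and -1.73 for Vamp3 1433693_x_at, -2.61 and -1.63 for Vamp4 1434796_at, -2.68 and -1.67 for Stx11 1457780_at, and, for Syt11, -1.98 and -0.98 on 1429314_at, -1.65 and -0.71 on 1456464_x_at, and -1.46 and -0.36 on 1455176_a_at. Syt11 1429315_at turned to -0.44 with the hybridisation controls. Vamp4 1434796_at turned to -0.23 with quantile normalization and -0.39 after background subtraction. Of 622 named results under alternatives, 547 kept direction and side of the threshold, 41 lost the call, 8 gained one, 19 reversed and 7, which passed under neither setting, changed sign. Equally numbered exosome and cell arrays did not deviate together (correlations -0.074 to 0.008). Most tested probe sets lay under the exosome floor, so this check cannot tell whether the numbers pair the arrays. With the replicate block 31 probe sets were lower and 9 higher. The exosome floor limits what can be seen: a transcript under it in exosomes is not shown to be absent. Causes of these shifts were not tested.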
